A study of Homo sapiens with 8 samples.

Results

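The 10 genes described here are neuropilins (NRP1, NRP2), class 3 semaphorins (SEMA3A, SEMA3B, SEMA3C, SEMA3F) and plexins (PLXNA1, PLXNA2, PLXNB2, PLXND1), chosen by symbol from a table of raw read counts for 25369 genes. The set was proposed with earlier results of these data in view, so the comparisons of its members describe them and are not independent evidence. The cells were MDA-MB-231, an established human breast cancer line of the triple-negative, mesenchymal kind, and RNA was sequenced from 8 libraries, 2 in each of 4 groups. WT is unmodified cells, SUN2KO is labelled as a knockout of SUN2, a protein of the inner nuclear membrane that couples the cytoskeleton to the nucleus, and Kashlid and LBD are labelled by SUN2 truncations. Kashlid lacks residues 569 to 585, the contact with Nesprin-2G, and LBD lacks residues 1 to 139, the lamin binding domain. Nothing in the labels tells in which background, WT or knockout, a truncated protein was made, whether a line is 1 clone, or whether the replicates of a group were separate cultures. The p-values below thus reflect library-to-library spread alone, and that spread may be technical.

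Semaphorins are guidance ligands, first known from axon growth and also made by many tumour cells. Class 3 semaphorins are secreted and bind a neuropilin, which has a short cytoplasmic tail and signals mostly through a plexin partner; plexins act inside the cell on small GTPases and through them on the cytoskeleton and integrin adhesion. SEMA3A favours NRP1, SEMA3F favours NRP2 and SEMA3C can use both, and neuropilins also bind some forms of vascular endothelial growth factor (VEGF).

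Libraries held 16570099 to 18814795 counts, and 14016 genes, all 10 members among them, passed the filter on low counts. SUN2 itself stood at a mean of 82.8 CPM (counts relative to library size, with TMM factors between libraries) in WT and at 28.0 to 36.3 CPM in the 3 altered lines, below WT in every library. All 6 genes listed as high in MDA-MB-231 were above 1 CPM in every group. Their sum was 1560 to 1591 CPM in WT and 1277 to 1398 in the lines. CAV1 had a mean of 91.5 CPM in WT and 49.6 to 62.0 in the lines. CD44 had a mean of 332.7 CPM in WT and 323.0 to 413.6 in the lines. Of the genes listed as low or absent, ERBB2 read 47.8 to 57.9 CPM and CDH1 just passed 1 CPM in Kashlid and LBD. The WT libraries had summed endothelial markers of 2.91 to 3.64 CPM, and the SUN2KO libraries 7.84 to 8.77. The sum was 2.43 to 3.11 CPM for Kashlid and 3.17 to 4.40 for LBD. Most of the SUN2KO sum was CDH5, at a mean of 6.74 CPM against 2.15 for WT, 1.11 for Kashlid and 1.78 for LBD. PECAM1 had a mean of 0.67 CPM for WT and 1.37 to 1.73 for the lines. TEK and VWF had means of at most 0.26 CPM and were highest in WT. KDR, a defining endothelial receptor, was at 0 in all libraries. Summed neuronal markers were 14.0 to 16.8 CPM in WT and 7.85 to 11.5 in the lines, with STMN2 at 0. Most of that sum was SNAP25, at a mean of 13.0 CPM in WT and 4.39 to 8.76 in the lines. RBFOX3 went the other way, from 0.72 CPM in WT to 1.51 to 2.09. Leukocyte markers summed to at most 2.44 CPM, with CD3E at 0, and markers of HEK293-type cells, also kept by the laboratory, to 9.15 to 9.33 CPM in WT and 4.80 to 6.45 in the lines. Most of the latter sum was TUBB2B, at a mean of 9.07 CPM in WT and 4.69 to 5.34 in the lines. LIN28B went the other way, from 0 in WT to 0.50 to 0.75 CPM. The part of other cell types in the results below was not tested. In bulk RNA, fewer cells that make a transcript and less of it per cell cannot be told apart.

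Upstream sequences are shown for the members that changed in one direction in all 3 lines and have a usable RefSeq entry, so that a reader can compare their composition. They are bases just before an annotated start (RefSeq, GRCh38.p14, given 5′ to 3′ on the gene's strand), with bases of annotated exons removed. Capitals mark GGGCGG, the core of a GC box, on either strand, where overlapping matches were counted separately. The table of promoters held 8 of the 10 members, and NRP1 and SEMA3A were not among them. The positions are chr2:205682251-205682499 (plus strand) for NRP2, chr3:126982865-126983114 (plus) for PLXNA1, chr3:129606819-129606926 (minus) for PLXND1 and chr7:80922390-80922639 (minus) for 1 of the 2 starts of SEMA3C; the window of the other start overlaps annotated exons and is not shown.
NRP2: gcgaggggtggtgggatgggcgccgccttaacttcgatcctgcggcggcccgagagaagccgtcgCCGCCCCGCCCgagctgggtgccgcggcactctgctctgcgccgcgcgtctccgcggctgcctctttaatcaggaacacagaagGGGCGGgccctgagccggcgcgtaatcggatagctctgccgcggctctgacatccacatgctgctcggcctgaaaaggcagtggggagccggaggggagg
PLXNA1: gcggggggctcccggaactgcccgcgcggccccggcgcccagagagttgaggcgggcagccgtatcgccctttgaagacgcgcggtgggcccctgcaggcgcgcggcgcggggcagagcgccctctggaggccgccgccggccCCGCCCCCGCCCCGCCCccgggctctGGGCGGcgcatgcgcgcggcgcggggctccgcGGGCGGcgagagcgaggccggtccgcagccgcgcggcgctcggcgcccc
PLXND1: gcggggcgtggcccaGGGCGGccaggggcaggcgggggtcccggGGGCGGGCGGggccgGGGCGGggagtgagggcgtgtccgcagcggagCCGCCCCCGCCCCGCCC
SEMA3C: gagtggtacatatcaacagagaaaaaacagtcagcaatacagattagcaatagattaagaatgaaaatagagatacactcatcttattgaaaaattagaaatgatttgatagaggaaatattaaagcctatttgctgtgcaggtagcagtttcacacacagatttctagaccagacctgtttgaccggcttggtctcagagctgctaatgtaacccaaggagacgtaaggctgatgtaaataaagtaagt
GC content was 69.9% in the NRP2 sequence, 84.4% in PLXNA1, 88.9% in PLXND1 and 36.4% in the SEMA3C sequence shown. The median over all promoter windows of 250 bases was 58.0%. GGGCGG was found 3 times in the NRP2 sequence, 5 times in PLXNA1, 7 times in PLXND1 and 0 times in the SEMA3C sequence shown. The window of the other SEMA3C start had a GC content of 77.6% and 3 matches. The PLXND1 sequence shown has only 108 bases. Its full window of 250 bases had a GC content of 88.8% and 9 matches. GGGCGG is present in 42.6% of 35116 promoter windows of 250 bases. Searched on both strands, CCAAT (32.0% of windows), TATAAA (10.7%), TGANTCA (6.57%) and CACGTG (6.34%) occurred in none of the 4 sequences shown. GC-rich sequence thus lay upstream of genes that rose and of genes that fell, and the starts of SEMA3C differed from each other.

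Against WT, NRP2 rose more than 4-fold and SEMA3A fell almost to 0 in all 3 lines, SEMA3C and PLXND1 fell, and PLXNA1 rose. At an adjusted p under 0.05 (edgeR's quasi-likelihood test, Benjamini-Hochberg over all tested genes), SUN2KO differed from WT in 8 of 10 members, 2 higher and 6 lower, where 36.7% of all tested genes were called, 17.5% higher and 19.1% lower. Kashlid differed in 7, 3 higher and 4 lower, where 44.5% of genes were called, 21.7% higher and 22.7% lower. LBD differed in 6, 3 higher and 3 lower, where 40.0% were called, 19.0% higher and 21.0% lower. The members' median log2 fold change was -0.34, -0.12 and 0.05 in turn, beside a median over all genes of 0.00 to 0.01. Libraries of the 2 groups did not overlap in 10, 10 and 8 members (69.4%, 71.1% and 70.0% of all genes). The same direction was called in all 3 comparisons for 5 members, NRP2, PLXNA1, SEMA3A, SEMA3C and PLXND1, and for 23.1% of all genes. Of these, 2 members were higher (10.3% of genes) and 3 lower (12.8%). A call of at least 4-fold in all 3 lines was found higher for NRP2 (0.392% of genes) and lower for SEMA3A (0.464%). SEMA3A passed the filter on low counts only through WT, so a fall was the only large change it could show. The 3 comparisons with WT share the 2 WT libraries.

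**Figure D1:**
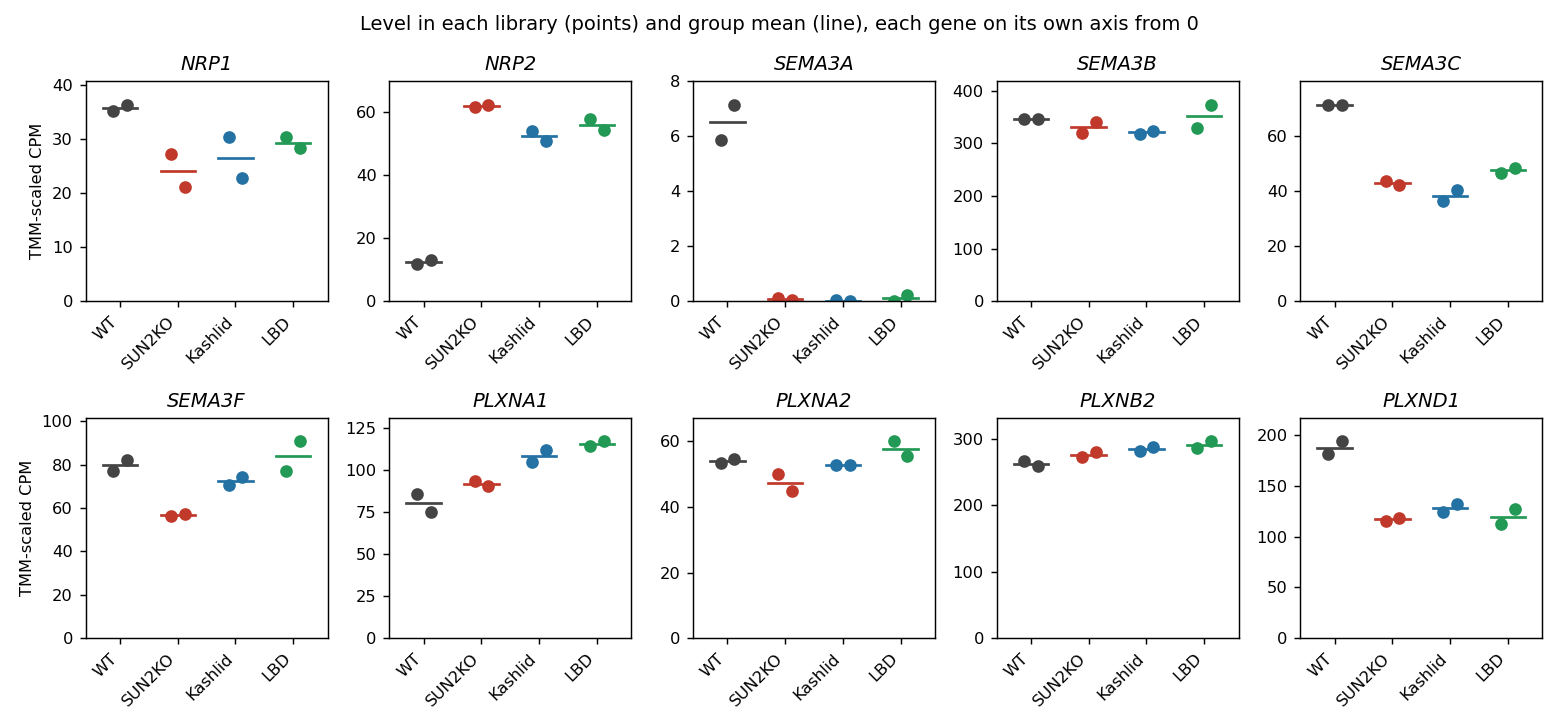
Level of each of the 10 members in TMM-scaled CPM, 1 panel per gene with its own linear axis from 0; points are the 2 libraries of WT, SUN2KO, Kashlid and LBD and lines are group means. NRP2 sits at 11.9 to 13.2 CPM in WT and 50.6 to 62.2 in the other lines, and SEMA3A leaves a level of 5.89 to 7.16 CPM for at most 4 counts per library.

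NRP2 (chromosome 2, 206547224 to 206662857 on hg19), the neuropilin that SEMA3F and VEGF-C use, read 11.9 and 13.2 CPM in the WT libraries, 61.4 and 62.2 in the SUN2KO libraries, 54.0 and 50.6 for Kashlid and 57.7 and 54.1 for LBD. Every library of the altered lines was above both WT libraries. The log2 fold change was 2.30 ± 0.09 (SE) for SUN2KO, 2.06 ± 0.09 for Kashlid and 2.15 ± 0.09 for LBD (adjusted p = 6.57e-14, 2.76e-13 and 1.70e-13). These are folds of 4.91, 4.16 and 4.44. Ranked from the largest increase, NRP2 was number 81, 158 and 140 of the 14016 genes.

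NRP1 (chromosome 10, 33466419 to 33623833), the main SEMA3A receptor and a VEGF-A co-receptor, moved less and the other way. It read 35.2 and 36.4 CPM in WT, 27.2 and 21.1 in the SUN2KO libraries, 30.4 and 22.8 for Kashlid and 30.4 and 28.3 for LBD. All 6 libraries of the lines lay below WT, but the pairs within SUN2KO and Kashlid differed widely. NRP1 fell by 0.57 ± 0.12 on the log2 scale in SUN2KO (adjusted p = 8.72e-04) and by 0.43 ± 0.12 in Kashlid (adjusted p = 0.00638, but 0.131 without Kashlid replicate 2). In LBD the log2 fold change of -0.29 ± 0.12 did not pass (adjusted p = 0.0627), though it did in 5 of 15 other settings.

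The balance between the neuropilins turned over in the lines. NRP2 supplied 25.3% (95% exact Clopper-Pearson interval 22.3 to 28.4) and 26.7% (23.8 to 29.8) of neuropilin reads in the WT libraries. It supplied 69.3% and 74.6% in the SUN2KO libraries, 64.0% and 69.0% for Kashlid and 65.5% and 65.7% for LBD, with bounds from 61.4% to 76.8%. These intervals cover counting error only. The summed level of both genes was 47.1 and 49.6 CPM in WT and 73.3 to 88.6 CPM in the lines. The log2 change of NRP2 exceeded that of NRP1 by 2.86 in SUN2KO, 2.48 in Kashlid and 2.44 in LBD.

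Among the ligands, SEMA3A (chromosome 7, 83587659 to 83824217), a repulsive cue that acts through NRP1, was nearly lost. It had 99 and 126 counts in the WT libraries, 2 and 1 in the SUN2KO libraries, 1 and 0 for Kashlid and 0 and 4 for LBD. WT was higher 80.8-fold than SUN2KO (95% exact counting interval 27.3 to 395), 224-fold than Kashlid (39.9 to 8905) and 55.6-fold than LBD (21.4 to 206). These intervals pool the libraries of a group and cover counting error only. The adjusted p-values were 2.27e-08, 9.86e-09 and 2.89e-08 (edgeR, over all genes). The gene passed the filter only through WT, where it was already the lowest of the members, so its depth of loss rests on single counts.

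SEMA3C (chromosome 7, 80371854 to 80548667), which can promote tumour cell migration, read 71.0 and 71.2 CPM in WT, 43.6 and 42.1 in the SUN2KO libraries, 36.4 and 40.2 for Kashlid and 46.5 and 48.2 for LBD. The lines did not reach WT in any library. SEMA3C fell by 0.73 ± 0.07 in SUN2KO (adjusted p = 9.92e-08), by 0.89 ± 0.07 in Kashlid (4.03e-09) and by 0.59 ± 0.07 in LBD (1.45e-06) on the log2 scale. LBD stood above Kashlid by 0.31 ± 0.07 (adjusted p = 0.0279).

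SEMA3F (chromosome 3, 50192848 to 50226508), the NRP2 ligand known as a repellent of tumour cells and vessels, read 77.2 and 82.1 CPM in WT, 56.1 and 57.3 in the SUN2KO libraries, 70.8 and 74.4 for Kashlid and 77.3 and 90.8 for LBD. The SUN2KO libraries held the lowest values of the 8, Kashlid lay between them and WT, and LBD overlapped WT. SEMA3F fell by 0.49 ± 0.07 in SUN2KO (adjusted p = 2.44e-05), while Kashlid (-0.13, adjusted p = 0.142) and LBD (0.08, adjusted p = 0.435) did not pass. Both truncation lines were above SUN2KO, Kashlid by 0.36 (adjusted p = 0.00173) and LBD by 0.57 (adjusted p = 1.27e-05). SEMA3B (chromosome 3, 50306427 to 50314602), a ligand described as a tumour suppressor, read 318.1 to 373.3 CPM over all 8 libraries and passed in no comparison. Its log2 fold changes against WT were -0.07, -0.11 and 0.02. A microRNA gene, MIR6872, overlaps SEMA3B, and the other members overlap no listed gene.

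PLXND1 (chromosome 3, 129274056 to 129325582), a receptor for SEMA3E that also takes part in vessel guidance, read 181.3 and 193.9 CPM in WT, 115.9 and 118.7 in the SUN2KO libraries, 124.4 and 132.3 for Kashlid and 112.8 and 126.9 for LBD. All line libraries were well below WT. It fell by 0.68 ± 0.06, 0.55 ± 0.06 and 0.65 ± 0.06 in turn (adjusted p = 3.63e-08, 3.86e-07 and 4.91e-08).

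PLXNA1 (chromosome 3, 126707437 to 126756235), a co-receptor of neuropilins for class 3 semaphorins, read 85.4 and 75.0 CPM in WT, 93.1 and 90.6 in the SUN2KO libraries, 104.6 and 111.8 for Kashlid and 113.8 and 116.9 for LBD. The 3 lines were above WT, and LBD was the highest. The log2 fold change was 0.43 ± 0.07 in Kashlid (adjusted p = 1.70e-05) and 0.52 ± 0.07 in LBD (adjusted p = 1.90e-06). It was 0.20 ± 0.07 in SUN2KO (adjusted p = 0.0233), a call lost without WT replicate 2 (0.372), either SUN2KO library (0.125 and 0.0686) and under DESeq2 (0.0544). LBD exceeded SUN2KO by 0.33 (adjusted p = 0.00117) and Kashlid exceeded it by 0.24 (adjusted p = 0.0128).

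PLXNA2 (chromosome 1, 208195588 to 208417665), a close relative of PLXNA1, read 53.4 and 54.6 CPM in WT, 50.1 and 44.8 in the SUN2KO libraries, 52.8 and 52.8 for Kashlid and 60.0 and 55.6 for LBD. The SUN2KO change of -0.19 ± 0.07 sat at the threshold (adjusted p = 0.0496). It was lost without WT replicate 1 (0.118), WT replicate 2 (0.184) or SUN2KO replicate 2 (0.400), among other settings. Kashlid (-0.03) and LBD (0.10) did not pass. PLXNB2 (chromosome 22, 50713408 to 50746001), a receptor for class 4 semaphorins, read 258.4 to 265.9 CPM in WT and 272.4 to 296.0 in the lines. Its log2 fold change was 0.07 in SUN2KO (adjusted p = 0.233), 0.12 ± 0.05 in Kashlid (adjusted p = 0.0460) and 0.15 ± 0.05 in LBD (adjusted p = 0.0152). The Kashlid call was lost in 9 of 15 other settings, to an adjusted p of 0.0943 without WT replicate 1, 0.231 without WT replicate 2 and 0.117 without Kashlid replicate 2. The LBD call was lost without WT replicate 2 (0.119) and without LBD replicate 2 (0.112).

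**Figure D2:**
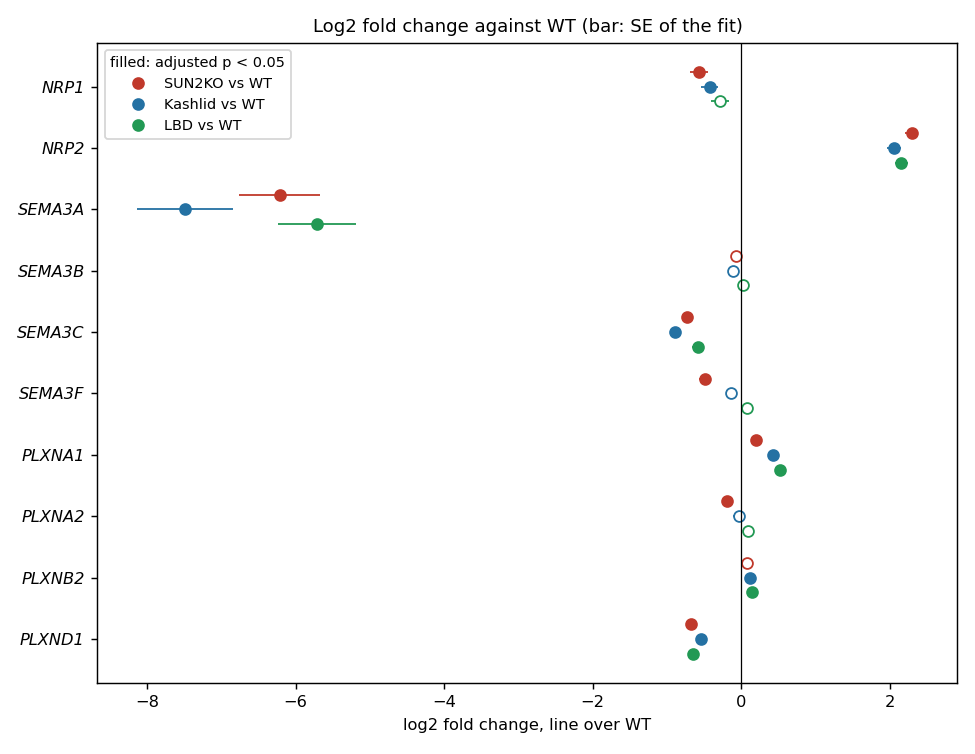
Log2 fold change of each member in SUN2KO, Kashlid and LBD against WT, with bars of 1 SE and filled points for an adjusted p under 0.05. NRP2 lies at 2.06 to 2.30 and SEMA3A between -7.49 and -5.71, a fitted value that depends on the prior count added to genes near 0, and the other 8 members lie between -0.89 and 0.52.

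Per kilobase of exon (GENCODE 29 exon length), levels in WT ran from SEMA3B at 104 CPM per kilobase through PLXNB2 (41.0), PLXND1 (26.4), SEMA3F (19.4), SEMA3C (13.5), PLXNA1 (8.85), PLXNA2 (4.72), NRP1 (3.31) and NRP2 (1.22) to SEMA3A (0.785). In WT no neighbours in this order overlapped between libraries. In the lines NRP2 passed NRP1 and PLXNA2, at 6.01 CPM per kilobase in SUN2KO, 5.09 in Kashlid and 5.44 in LBD, and NRP1 read 2.23, 2.46 and 2.71. PLXNA1 passed SEMA3C in all 3 lines. PLXND1 (16.9) and SEMA3F (20.4) changed places in LBD, where their libraries did not overlap.

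Between the lines, Kashlid differed from SUN2KO in 3 of 10 members, 2 higher and 1 lower, where 18.0% of all genes were called, 8.92% higher and 9.13% lower. LBD differed from SUN2KO in 3, all higher, where 13.5% of genes were called, 6.69% higher and 6.79% lower. LBD differed from Kashlid in 1, higher, where 2.91% were called, 1.63% higher and 1.28% lower. Libraries did not overlap in 7, 7 and 6 members (56.8%, 54.6% and 43.8% of genes). In the first, SEMA3F and PLXNA1 were higher and NRP2 was lower in Kashlid by 0.24 (adjusted p = 0.0247). In the second, SEMA3F, PLXNA1 and PLXNA2 (0.29, adjusted p = 0.0113) were higher in LBD. SEMA3C alone separated the truncation lines. Several of these calls were lost under other settings. That on NRP2 was lost without SUN2KO replicate 1 (adjusted p = 0.111), SUN2KO replicate 2 (0.130) or Kashlid replicate 2 (0.134), with scaling by library size only (0.0556) and in DESeq2 (0.0770). That on PLXNA1 in Kashlid was lost without the same libraries (0.0745, 0.108 and 0.0753). That on PLXNA2 was lost without SUN2KO replicate 2 (0.178) or LBD replicate 1 (0.119), and that on SEMA3C without SUN2KO replicate 1 (0.0507), Kashlid replicate 1 (0.192), LBD replicate 1 (0.104) or LBD replicate 2 (0.176) and in a fit of the 2 groups alone (0.115). The calls on SEMA3F against SUN2KO and on PLXNA1 in LBD were kept in all 15 settings.

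Of the other 21 semaphorins and plexins, 17 were measured well enough to test, and more rose than fell. In SUN2KO 5 rose and 2 fell (median log2 fold change 0.26), in Kashlid 10 rose and 1 fell (0.40), and in LBD 6 rose and 0 fell (0.29). The shares of all genes that rose were 17.5%, 21.7% and 19.0% in turn, and 19.1%, 22.7% and 21.0% fell. Of the 17, 1 gene, PLXNB1, was called in the same direction in all 3 lines, where 23.1% of all genes were. This receptor for SEMA4D read 54.7 and 54.0 CPM in WT, 65.7 and 65.7 in the SUN2KO libraries, 71.4 and 72.6 for Kashlid and 62.6 and 68.2 for LBD, with log2 fold changes of 0.27, 0.40 and 0.27 (in LBD, adjusted p = 0.00324, and 0.0606 without LBD replicate 2).

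In SUN2KO the genes with the largest called changes were SEMA3D (-1.49 ± 0.38), SEMA6C (1.10 ± 0.39), SEMA6D (0.72 ± 0.22) and SEMA7A (0.66 ± 0.20), as log2 fold change ± SE. SEMA3D, a secreted ligand next to SEMA3A on chromosome 7, read 3.03 and 1.99 CPM in WT and 0.974 and 0.806 in SUN2KO. In Kashlid they were SEMA3G (1.43 ± 0.58), SEMA6C (1.06 ± 0.39), SEMA4G (0.92 ± 0.27) and SEMA6B (0.86 ± 0.12). SEMA3G and SEMA6C were under 3 CPM in every library. In LBD they were SEMA7A (0.91 ± 0.20), PLXNB3 (0.91 ± 0.19), SEMA4G (0.84 ± 0.27) and SEMA4B (0.55 ± 0.09). SEMA4B, a membrane-bound class 4 semaphorin, read 53.4 and 54.8 CPM in WT, 52.1 and 55.2 in the SUN2KO libraries, 72.0 and 81.7 for Kashlid and 68.7 and 90.2 for LBD. Its truncation lines thus lay above both other groups, with no overlap. SEMA6B, a membrane-bound class 6 semaphorin, was the 1 gene of these 17 to separate LBD from Kashlid, at 15.8 and 17.4 against 27.0 and 28.4 CPM (-0.74 ± 0.11, adjusted p = 0.0012). That count of 1 was 2 with no filter or with a replicate block and 0 in DESeq2. The SEMA6B difference ranged from -0.81 to -0.67 over the 14 other settings that gave a value. The SUN2KO count of 7 called genes was 2 without WT replicate 2, 3 without SUN2KO replicate 1 and 4 without SUN2KO replicate 2 or in DESeq2, and the Kashlid count of 11 was 6 without WT replicate 2. SEMA3D lost its call without WT replicate 1 (adjusted p = 0.0730). Without WT replicate 2 the calls on SEMA6C (0.282), SEMA6D (0.129) and SEMA7A (0.224) in SUN2KO were lost, as were those on SEMA3G (0.170), SEMA6C (0.282) and SEMA4G (0.0828) in Kashlid and on SEMA4G in LBD (0.130). Without Kashlid replicate 1, SEMA3G reached an adjusted p of 0.298, and it was called in 7 of 14 other settings. SEMA4G in LBD reached 0.230 without LBD replicate 2, SEMA7A in SUN2KO 0.184 without SUN2KO replicate 1, and SEMA6C 0.178 in Kashlid without Kashlid replicate 2. SEMA6C and SEMA6D in SUN2KO were also lost without either SUN2KO library (0.0601 to 0.127). The calls named for SEMA6B in Kashlid and for SEMA7A, PLXNB3 and SEMA4B in LBD were kept without each library in turn.

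**Figure D3:**
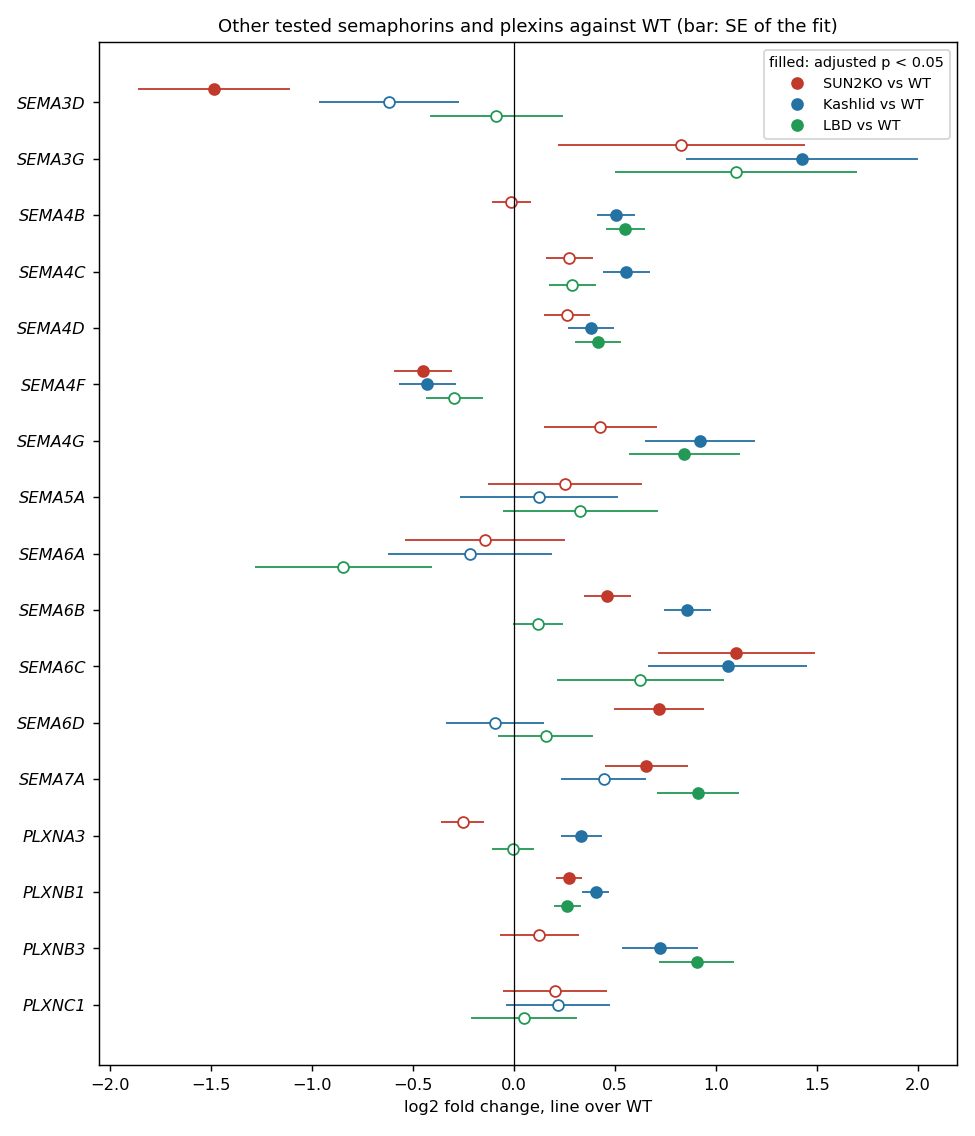
Log2 fold change against WT of the 17 other tested semaphorins and plexins in SUN2KO, Kashlid and LBD, with bars of 1 SE and filled points for an adjusted p under 0.05. Most points lie to the right of 0, and SEMA3D in SUN2KO at -1.49 is the lowest.

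VEGF ligands that share the neuropilins were measured in 3 of 8 listed genes; KDR had 0 counts in every library, and the other VEGF receptors were below the filter. VEGFC, an NRP2 ligand, read 16.6 and 15.8 CPM in WT, 11.1 and 8.81 in the SUN2KO libraries, 12.6 and 10.9 for Kashlid and 13.1 and 14.3 for LBD. It fell by 0.70 ± 0.14 in SUN2KO and by 0.47 ± 0.13 in Kashlid, and LBD did not pass (-0.24, adjusted p = 0.155). VEGFB fell in all 3 lines (-0.43, -0.32 and -0.32), and VEGFA rose in Kashlid (0.23 ± 0.09, adjusted p = 0.0337). Several of these calls rested on 1 library. VEGFC in Kashlid (0.0602) and VEGFB in SUN2KO (0.0541), Kashlid (0.136) and LBD (0.160) did not pass without WT replicate 1. Without LBD replicate 2, VEGFB in LBD reached an adjusted p of 0.248. VEGFA in Kashlid was 0.07 without Kashlid replicate 1 (adjusted p = 0.522) and 0.12 without WT replicate 1 (0.373), and it did not pass in DESeq2 (0.246). Its Kashlid replicate 2, at 131.7 CPM, lay below WT replicate 2, at 135.4 CPM.

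Partner receptors were measured in 6 of 8 cases, with 2 higher and 3 lower in SUN2KO and 0 higher and 3 lower in each truncation line, where 36.7%, 44.5% and 40.0% of all genes were called in SUN2KO, Kashlid and LBD. The 3 that fell everywhere were MET, a receptor tyrosine kinase that associates with class B plexins (-0.72, -0.86 and -0.69 in SUN2KO, Kashlid and LBD), and the integrin subunits ITGB1 (-0.78, -0.99 and -0.82) and ITGA1 (-0.66, -1.40 and -1.05). NRCAM, an adhesion molecule that binds NRP2, rose in SUN2KO (1.90 ± 0.51, adjusted p = 0.00588) from 4 and 12 counts to 41 and 24, a call lost without WT replicate 1 (0.0942) or SUN2KO replicate 1 (0.106).

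Intracellular effectors were split in direction. Of 30 tested genes, 10 rose and 9 fell in SUN2KO (median 0.12), 9 rose and 12 fell in Kashlid (0.03), and 9 rose and 11 fell in LBD (-0.06). Over all genes, 17.5% rose and 19.1% fell in SUN2KO, 21.7% rose and 22.7% fell in Kashlid, and 19.0% rose and 21.0% fell in LBD. DPYSL2, also called CRMP2, which carries the SEMA3A signal to microtubules, read 143 and 149 CPM in WT and 61.6 to 72.2 CPM in the lines. It fell by 1.15 ± 0.06, 1.24 ± 0.06 and 1.07 ± 0.06. The related DPYSL3 rose in all 3 lines (0.61, 0.57 and 0.67), and DPYSL4 rose in Kashlid (1.56 ± 0.46) and LBD (1.67 ± 0.45) from levels under 1 CPM. The DPYSL4 calls were lost without WT replicate 1 (0.0598) or Kashlid replicate 2 (0.0903) in Kashlid and without LBD replicate 2 (0.288) in LBD.

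FYN, a kinase that binds plexin A2 and acts downstream of SEMA3A, read 2.08 and 1.31 CPM in WT, 5.14 and 6.50 in the SUN2KO libraries, 8.61 and 6.63 for Kashlid and 6.02 and 6.88 for LBD. Its log2 fold changes were 1.78 ± 0.25, 2.17 ± 0.25 and 1.93 ± 0.25. SH3BP1, a GTPase-activating protein of the SEMA3E and PLXND1 pathway, rose as well (1.61, 1.72 and 1.48) from 0.713 and 0.852 CPM. RND1, a GTPase that binds plexin A1 and plexin B1, rose in LBD (1.43 ± 0.54, adjusted p = 0.0407) from 8 and 5 counts to 21 and 14, a call lost without WT replicate 2 (0.243) or LBD replicate 1 (0.237), among others.

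Proteases that process semaphorins or neuropilins were tested in 7 of 8 cases, with 0 higher and 2 lower in SUN2KO, 2 higher and 2 lower in Kashlid and 2 higher and 3 lower in LBD. The shares of all genes called were 36.7%, 44.5% and 40.0% in turn, and a difference of these counts from the shares was not tested. FURIN, the convertase that cleaves class 3 semaphorins, read 306 and 324 CPM in WT, 206 and 202 in the SUN2KO libraries, 234 and 226 for Kashlid and 238 and 240 for LBD, and fell by 0.63, 0.45 and 0.40 (SE 0.05 each). ADAMTS1, which cleaves SEMA3C, fell by 0.79, 0.83 and 1.07. ADAM17, a sheddase, rose in Kashlid (0.43 ± 0.08), MMP14 rose in Kashlid (0.34 ± 0.10) and LBD (0.54 ± 0.10), and PCSK6 fell in LBD (-0.48 ± 0.11). The MMP14 call in Kashlid was lost without WT replicate 1 (0.0858) or Kashlid replicate 2 (0.0863).

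Genes that start within 2.5 Mb of each member were set beside it. NRP1 lay among genes that were lower together. Of its 13 tested neighbours, 10, 10 and 9 were called lower in SUN2KO, Kashlid and LBD, where 19.1%, 22.7% and 21.0% of all genes were. The medians of these neighbours were -0.65, -0.70 and -0.60. NRP1's own decrease was smaller than these medians. NRP2 had 17 tested neighbours with medians of 0.13, 0.06 and 0.08, and 0 of them reached its increase. For PLXND1 (35 neighbours) the medians were -0.01, 0.00 and 0.06, and 3, 4 and 3 neighbours reached its decrease. For PLXNA1 (39 neighbours) they were -0.10, -0.02 and 0.01, and 3, 2 and 1 neighbours reached its increase.

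SEMA3C and SEMA3A had few tested neighbours, which were named after their values were seen. GNAI1 (-0.65, -0.57 and -0.75) and CD36 (-2.05, -2.43 and -3.03), next to SEMA3C, were lower in all 3 lines. PCLO, which lies between the 2 semaphorins, went the opposite way, with 1 and 0 counts in WT, 34 and 53 in the SUN2KO libraries, 69 and 66 for Kashlid and 51 and 58 for LBD. Its ratio to WT was 80.7 in SUN2KO (95% exact counting interval 14.1 to 3226), 135 in Kashlid (23.9 to 5384) and 110 in LBD (19.4 to 4397). These intervals, too, pool the libraries of a group and cover counting error only. SEMA3A and PCLO thus moved in opposite directions in every line, each close to 0 on one side. PCLO passed the filter on low counts only through the lines and SEMA3A only through WT. The filter thus left each gene no other large change to show.

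**Figure D4:**
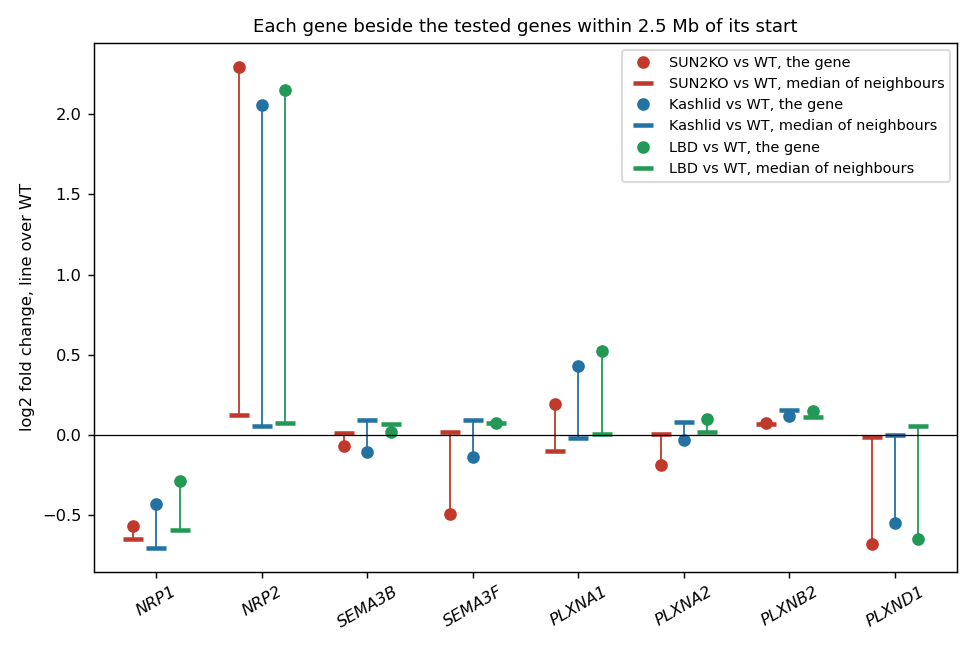
Log2 fold change of SUN2KO, Kashlid and LBD over WT for 8 members (points) and the median of the tested genes that start within 2.5 Mb of each (dashes), joined by a line; SEMA3A and SEMA3C, with 2 and 3 such genes, are left out. NRP1 sits above a neighbour median of -0.70 to -0.60, by 0.08 in SUN2KO, 0.27 in Kashlid and 0.31 in LBD. NRP2 at 2.06 to 2.30 stands far above its own neighbour median at 0.06 to 0.13.

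Over the 10630 genes whose mean reached 5 CPM, those whose log2 CPM followed NRP1 most closely over the 8 libraries were SPRY2 (Pearson r = 0.964), CLCN4 (0.962) and SOCS6 (0.957). For NRP2 they were DHX32 (0.998), TAOK3 (0.996) and BUB3 (0.996), and 630 genes were above 0.9, against 55 for NRP1. The points are 4 groups of 2, and for NRP2 they form WT on one side and the other lines on the other, so the values describe a shared contrast.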

How the data were processed

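Per the labels, total RNA of MDA-MB-231 cells was sequenced, with 2 libraries per group (WT, SUN2KO, Kashlid, LBD). Per the submitters' processing notes, reads were trimmed with Trim Galore, aligned to hg19 with STAR 2.7.1a and counted with HTSeq, and bedtools 2.24.0 and DESeq2 were used. The sources used here give neither the strand setting nor the annotation version. The deposited counts are raw reads per gene, with 0 entries naming no gene. The authors' deposited comparison tables hold log2 fold changes and p-values without column names; they served to identify columns (correlation 0.999 with recomputed values) and to give hg19 positions. The 12 unnamed per-library columns in them were not used.

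From these counts, edgeR 4.0.16 (R 4.3.3) gave TMM factors, a filterByExpr set of 14016 genes and quasi-likelihood tests from a single model of the 4 groups fitted to the 8 libraries (4 residual degrees of freedom), two-sided, with Benjamini-Hochberg adjustment over all kept genes and a threshold of 0.05. The steps were tested on simulated data. Members and gene lists were chosen with earlier results of these data known. All members are named. From each other list, up to 4 called genes per comparison with WT were named in order of size, and for each neuropilin the 3 genes with the highest correlation. PLXNB1, SEMA6B between the truncation lines, DPYSL3 in the truncation lines, SEMA4B and the neighbours were named after their values were seen. Alternatives were DESeq2 1.42.0, library size only or median-ratio factors for scaling, no filter or 5 CPM in 2 libraries, the 2 groups alone, a replicate block, each library left out, and a 2-fold limit; those for genes of other lists were added after seeing the data.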

Additional observations from a re-analysis of the deposited data

Results flagged for a closer look

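The response against WT differed between lines, by the test of the difference itself, for 5 members in 7 cases (edgeR, adjusted over all genes), where 18.0% of all genes were called in Kashlid against SUN2KO, 13.5% in LBD against SUN2KO and 2.91% in LBD against Kashlid. Against SUN2KO, the Kashlid libraries were lower in NRP2 (log2 difference -0.24) and higher in PLXNA1 (0.24) and SEMA3F (0.36). Against SUN2KO, the LBD libraries were higher in PLXNA1 (0.33), PLXNA2 (0.29) and SEMA3F (0.57). Against Kashlid, the LBD libraries were higher in SEMA3C (0.31). Leaving out 1 library ended the call on NRP2 and PLXNA1 in Kashlid, on PLXNA2 in LBD and on SEMA3C, which held in 10, 12, 13 and 10 of 15 other settings. In SEMA3F the SUN2KO mean was 56.7 ± 0.86 CPM (SD, n = 2), against 72.6 ± 2.59 in Kashlid and 84.0 ± 9.53 in LBD, with no overlap between SUN2KO and either line.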

How the results depend on the processing

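NRP2, SEMA3C and PLXND1 kept their direction and their call in all 3 comparisons with WT under every alternative that gave a value. The exception was the 2-fold limit, which SEMA3C and PLXND1 do not reach. SEMA3A kept both too, but it passed the filter on low counts only through WT. A fall was thus the only large change SEMA3A could show. Of 854 alternative values for members, including those of SEMA3A against WT, 800 kept direction and call. With a 2-fold limit the genes called were 630 (SUN2KO against WT), 918 (Kashlid), 813 (LBD), 320 (Kashlid against SUN2KO), 290 (LBD against SUN2KO) and 16 (LBD against Kashlid), and the members 2, 2, 2, 0, 0 and 0. Leaving out 1 library gave 1186 to 2469 genes and 1 to 3 members for Kashlid against SUN2KO, 884 to 2386 genes for LBD against SUN2KO, and 129 to 839 genes and 0 to 1 members for LBD against Kashlid. The last comparison had 775 genes with no filter, and 129 genes and 0 members in a fit of the 2 groups alone. DESeq2 called 4044, 5096, 4460, 1785, 1306 and 351 genes in the 6 comparisons, beside 5137, 6232, 5611, 2529, 1890 and 408. Members called in DESeq2 were 6, 6, 6, 2, 3 and 1, beside 8, 7, 6, 3, 3 and 1. Scaled by library size only, 1574 genes were higher and 996 lower in Kashlid against SUN2KO (1250 and 1279 in the reported fit), and 1128 and 718 in LBD against SUN2KO (938 and 952).

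Changes of sign concerned small, uncalled differences, and the cause was not tested. Scaled by library size only, PLXNA2 in Kashlid against WT was 0.0046. The other sign changes came from leaving out 1 library. In LBD against WT, SEMA3B ranged from -0.072 to 0.11 and SEMA3F from -0.041 to 0.19, in both cases lowest without LBD replicate 2. In Kashlid against SUN2KO, NRP1 ranged from -0.084 (without Kashlid replicate 1) to 0.33, with -0.030 without SUN2KO replicate 2, and SEMA3B from -0.089 to 0.0052 (without SUN2KO replicate 2). In LBD against SUN2KO, SEMA3B ranged from -0.0062 to 0.18 and PLXND1 from -0.055 to 0.12, both lowest without LBD replicate 2. In LBD against Kashlid, NRP1 ranged from -0.050 (without Kashlid replicate 2) to 0.37. In SUN2KO against WT, SEMA4B ranged from -0.055 to 0.035, with 0.0020 without WT replicate 2 and 0.035 without SUN2KO replicate 1.

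Same-numbered libraries hardly deviated together (correlations of -0.01 to 0.08), and the reported fit did not pair them. With 2 libraries per group, these correlations cannot show whether same-numbered libraries were handled together. With a replicate block, 5412, 6457, 5798, 2787, 2134 and 581 genes were called, and NRP1 passed in LBD against WT (adjusted p = 0.0243). Depth limits SEMA3A in the lines, at 0 to 4 counts a library, and the semaphorins under about 3 CPM.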

Other observations

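Family members below the filter on low counts were near 0 in all groups. SEMA3E, the PLXND1 ligand, had at most 1 count in any library, and SEMA5B at most 1. SEMA4A had 0 to 5 counts and PLXNA4 0 to 8 counts per library, with 0 in both SUN2KO libraries for PLXNA4. No fold is given for these genes.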
